A study of Mus musculus with 24 samples.

Results

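Gene expression was compared between the hearts of newborn mice that lack executioner caspases and the hearts of newborn wild-type (WT) mice, to see which transcripts differ in the newborn ventricle when these enzymes are missing. Arrays were chosen by their titles alone: the 6 titled newborn knockout (KO) and the 6 titled newborn wild type, 12 of the 24 arrays in the series, and all 18819 genes with a named probe set were read in them. The animals were C57/Bl6 mice by their labels, with a C57BL/6J background by the methods, and ventricular muscle was taken. The labels give postnatal day 1 to 2, and the methods a range that starts and ends 1 day earlier. The KO was a double one. A floxed caspase gene was removed by Cre under the Nkx2.5 promoter and cardiac enhancer, which is active from the onset of cardiac commitment, and a second caspase gene was deleted in every cell. Cells of the heart outside this lineage, such as fibroblasts, therefore kept the floxed gene intact and lacked the second caspase all the same. The methods give 3 males and 3 females for the WT samples, the labels do not give the sex of a sample, and whether WT mice carried Cre is not given in the sources used here. The other 12 arrays came from KO and WT mice called young here, of postnatal day 30 by the labels and a range of days from then on by the methods, and enter the text only as a comparison.

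Executioner caspases are proteases that cut many cellular proteins late in apoptosis, and milder activity of the same enzymes has been linked to differentiation of muscle cells. The heart is born while its myocytes still divide. In the days around birth they copy their DNA, condense and segregate their chromosomes, and then leave the cell cycle for good. Dividing cells transcribe the required machinery in waves: genes for DNA replication are switched on by E2F factors as a cell enters S phase, and genes for mitosis are switched on later, through the MuvB complex with B-Myb and FoxM1. In resting cells both waves are held off by pocket proteins and the DREAM complex.

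Values are RMA log2 signals, so a difference of 1 is a doubling, and a difference is always KO minus WT unless stated. The 12 newborn arrays were alike in distribution, with medians over all probe sets between 4.27 and 4.49, and each array correlated with the others of its group at a mean r between 0.987 and 0.993 over probe sets. WT 3 stood highest, with a mean signal of 5.79 over the genes tested, against 5.63 to 5.70 in the other 11. Heart muscle markers were bright throughout: 32 sarcomere genes had a mean signal of 10.20 to 10.40 in every array, and 20 cardiac transcription factors one of 8.76 to 8.95. A list of 11 atrial genes ran from 7.25 in WT 2 to 9.13 in KO 6.

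The arrays labelled WT 4 and KO 4 stood apart from their groups. They can be placed with 9 genes whose 6 KO and 6 WT values did not overlap in young hearts, with an adjusted p under 0.05 there, and which were also called in the newborn arrays when those 2 arrays were left out. Ndrg4, a cytoplasmic protein needed for normal growth of heart muscle, was 9.89 to 10.07 in the other 5 WT arrays and 9.21 in WT 4, and 8.90 to 9.42 in the other 5 KO arrays and 10.03 in KO 4. Hspa12a, a distant member of the HSP70 family, was 7.24 to 7.57 in the other WT arrays and 6.78 in WT 4, and 6.51 to 6.72 in the other KO arrays and 7.31 in KO 4. On a scale where the mean of the other 5 WT arrays is 0 and that of the other 5 KO arrays is 1, WT 4 was nearer the KO mean and KO 4 nearer the WT mean for all 9 genes, with median positions of 0.815 for WT 4 and 0.081 for KO 4. Over all 482 genes called without these arrays, WT 4 was nearer the KO mean in 435 and KO 4 nearer the WT mean in 433. The values of WT 4 and KO 4 did not enter the choice of these genes. Both arrays had, however, been singled out by their signals in an earlier look at these data. The placement therefore describes these arrays and is not independent support. No sample was moved to another group, and each result below is given first with all 12 arrays as labelled and then without these 2. Because they were singled out by their signals, p-values without them do not hold at face value and serve as a description.

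**Figure D1:**
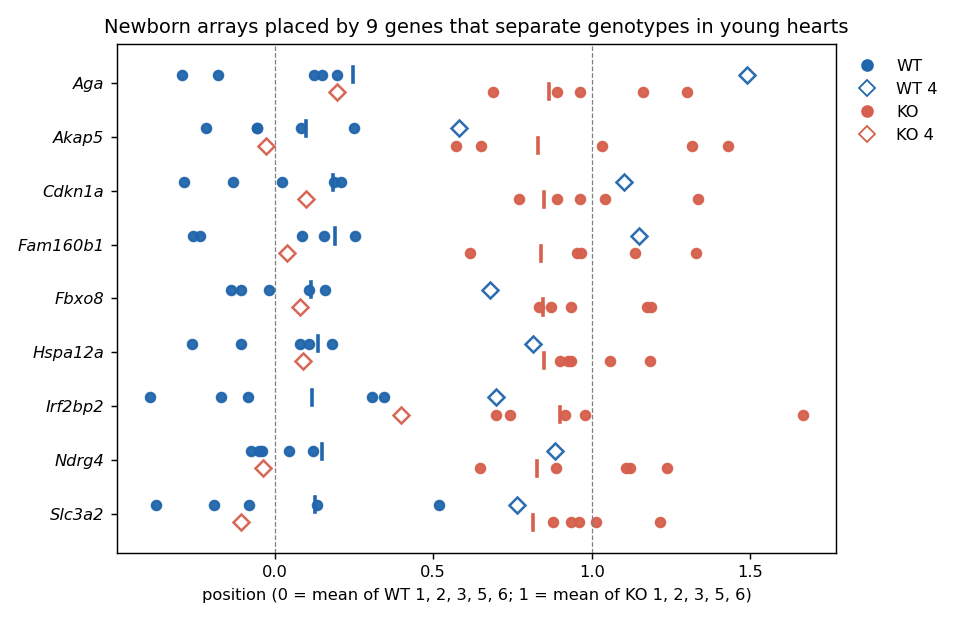
Position of each newborn array for 9 genes that separated KO from WT in young hearts, on a scale per gene where 0 is the mean of WT 1, 2, 3, 5 and 6 and 1 is the mean of KO 1, 2, 3, 5 and 6. Filled circles are single arrays, open diamonds are the arrays numbered 4 and bars are the means of all 6 arrays of a group. WT 4 lies nearer 1 and KO 4 nearer 0 in all 9 rows.

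The 9 genes were Aga, Akap5, Cdkn1a, Fam160b1, Fbxo8, Hspa12a, Irf2bp2, Ndrg4 and Slc3a2. In the GRCm38.p6 annotation 4 of them lie on chromosome 8 (Aga, Fbxo8, Irf2bp2 and Ndrg4) and 3 on chromosome 19 (Fam160b1, Hspa12a and Slc3a2), while these chromosomes together hold 8.16% of the genes tested; this grouping was looked up after the genes were seen. Fbxo8, an F-box protein, differed by -0.35 ± 0.08 (SE) with all arrays and by -0.47 ± 0.05 without the arrays numbered 4, and by -0.42 in young hearts. Aga, a lysosomal enzyme that breaks down glycoproteins, differed by -0.20, -0.32 and -0.66 in the same 3 readings. Irf2bp2, a transcriptional corepressor, and Slc3a2, the heavy chain of amino acid transporters, were higher in KO, by 0.28 and 0.26 with all arrays and 0.36 and 0.38 without those 2. The genotype of each array rests on its label.

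Some KO arrays had high signals for transcripts typical of other organs. Alb, the main protein made by liver, was 9.93 in KO 1 and 10.42 in KO 2, and at most 5.59 in the other 10 arrays. Apoa1 and Afp, also liver products, were highest in the same arrays, at 8.61 and 9.06 and at 6.46 and 6.93. Scgb1a1, the secretory protein of airway club cells, was 10.98 in KO 6, 7.49 in KO 2 and at most 4.25 elsewhere. KO 6 also had Sftpb, a lung surfactant protein, at 6.41, the skeletal muscle genes Myh8 and Tnnt3 at 7.30 and 7.60, and the neutrophil granule gene Ltf at 7.47. WT 2 and WT 3 had Cd8a, a marker of thymocytes and T cells, at 5.41 and 5.51, against 4.81 in KO 5 and 3.27 to 4.06 in the others. Of the 18 liver, skeletal muscle, lung and thymus markers measured, 6 were higher in KO at an unadjusted p under 0.05, where 1.45% of all genes were. For the liver and skeletal muscle list, the KO group did not share this as a whole. The mean of the liver and skeletal muscle markers was 5.77, 5.99 and 4.84 in KO 1, 2 and 6, and at most 4.16 in every other newborn array. Single transcripts given further down, Hp of liver and Sftpc of lung, were above the WT range in other KO arrays too. The part of this material in the other results was not tested, but the counts that matter were repeated without KO 1, 2 and 6. The remaining KO arrays were not shown to be free of it.

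**Figure D2:**
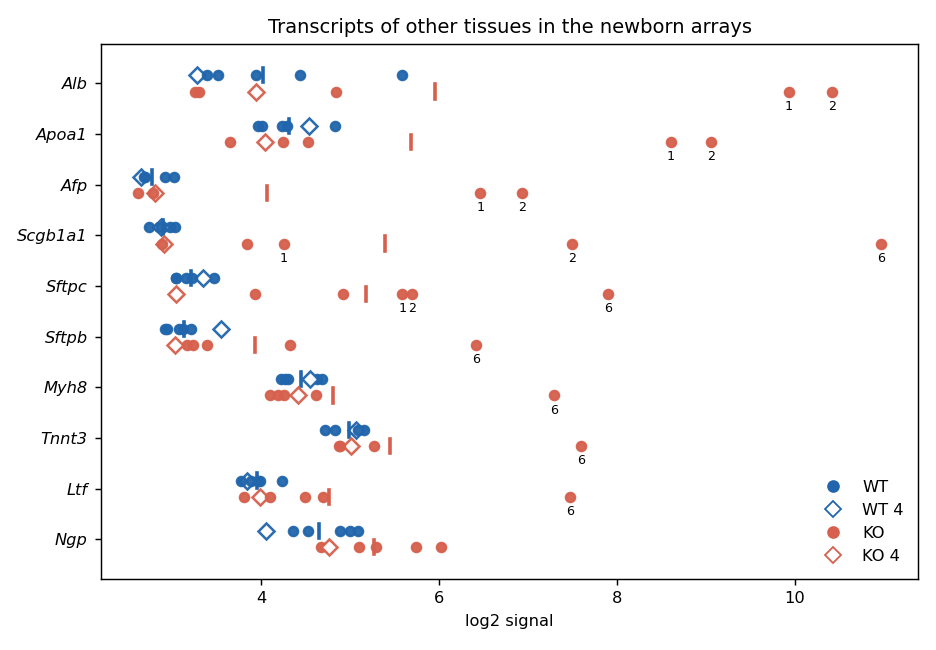
log2 signal of 10 transcripts of liver (Alb, Apoa1, Afp), lung (Scgb1a1, Sftpc, Sftpb), skeletal muscle (Myh8, Tnnt3) and neutrophils (Ltf, Ngp) in the 12 newborn arrays. Circles are arrays, open diamonds the arrays numbered 4, bars group means, and digits name KO 1, 2 and 6 where they exceed every WT array by more than 1. The liver transcripts stand out in KO 1 and KO 2 and the lung and muscle transcripts in KO 6.

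Genes of the cell division machinery were lower in KO hearts as a body. Of 325 genes written into 15 lists by role, 293 were measured, and 272 of these had a lower mean in KO. At an unadjusted p under 0.05, 170 were lower and 1 was higher, whereas over all 18819 genes 7.62% were lower and 1.45% higher at that level. Their median difference was -0.36, against -0.05 over all genes. With all 12 arrays no single gene of the table passed the adjusted threshold: 0% of genes had an adjusted p under 0.05 in limma, the smallest being 0.101, while 1434 were lower and 273 higher at an unadjusted p under 0.05. Quantile normalization turned the latter counts to 793 and 632 and median centring to 839 and 377, so the excess of lower over higher genes in the whole table depends on the scaling, while 164 and 167 of the cell division genes were lower at that p. In bulk tissue, fewer dividing cells and less of a transcript in each cell cannot be told apart.

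The mean signal of the 293 genes was 6.92, 7.09, 7.14, 6.48, 6.78 and 7.01 in WT 1 to 6 and 6.59, 6.55, 6.72, 6.91, 6.37 and 6.10 in KO 1 to 6. Leaving out the arrays numbered 4, the lowest WT array (WT 5, 6.78) was above the highest KO array (KO 3, 6.72), and with them the groups overlapped. WT 4 was below the other 5 WT arrays for 232 of the 293 genes, and KO 4 was above the other 5 KO arrays for 194. KO 6 was lowest of the 12 arrays for 208. Without WT 4 and KO 4, 133 of the 293 genes fell and 1 rose at an adjusted p under 0.05, against 1.94% of all genes that fell and 0.622% that rose, and the median difference was -0.51. They made up 36.4% of the 365 genes called lower. Without KO 1, 2 and 6, with the arrays numbered 4 kept, 29 of the 293 were lower at an unadjusted p under 0.05, against 378 of all 18819 genes, and the median difference was -0.22. Without all 5 of these arrays, 168 were lower, against 777 of all genes, and the median was -0.45, with KO represented by KO 3 and KO 5 alone. Leaving out single arrays gave 113, without KO 6, to 209, without WT 4.

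**Figure D3:**
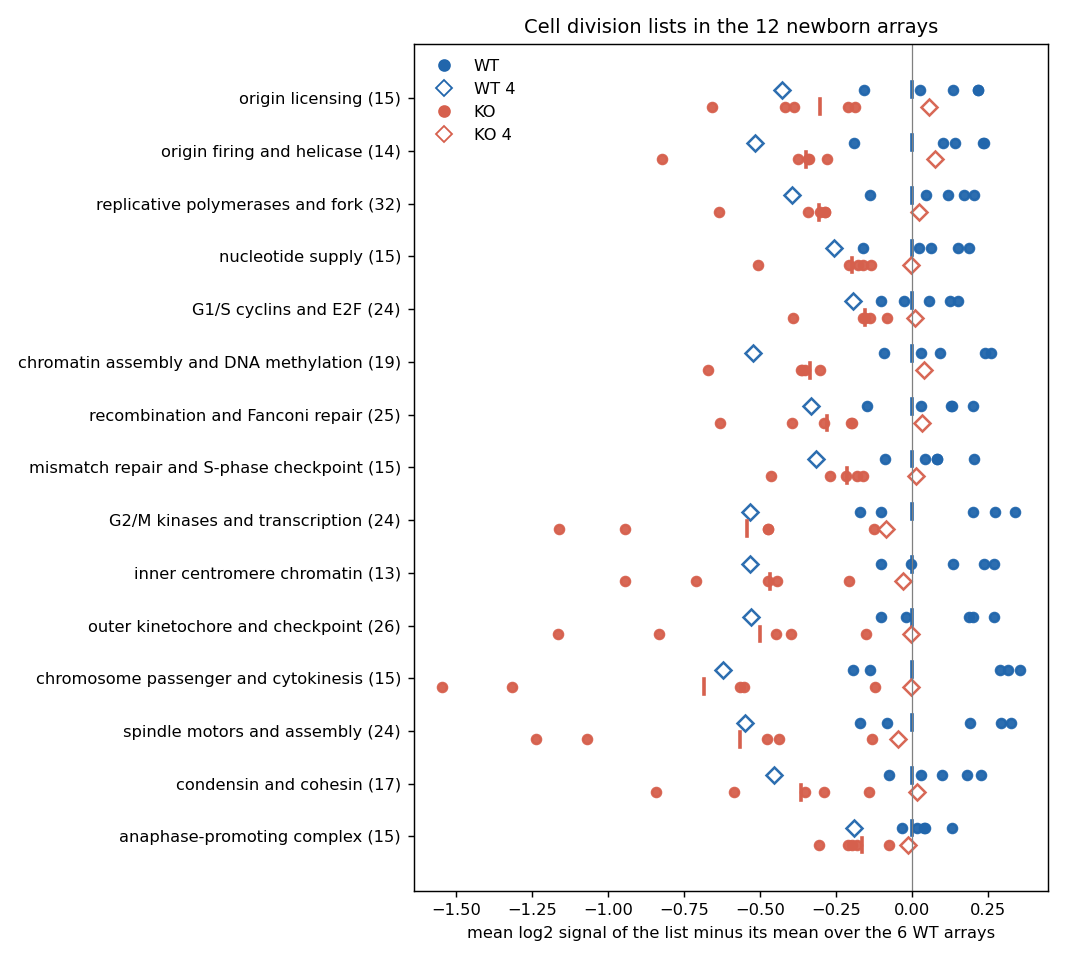
Mean log2 signal of 15 cell division lists in each newborn array, minus the mean of the 6 WT arrays (number of measured genes in brackets). Circles are arrays, open diamonds the arrays numbered 4 and bars group means. In each row KO 4 lies within the range of the WT arrays, WT 4 lies within the range of the KO arrays, and KO 6 is lowest.

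Both waves are known to be driven through short promoter elements, and the promoters were searched for their letters. RefSeq promoters (GRCm38.p6) of 300 bases, from 250 before to 50 after the first listed start, were matched to 14749 of the genes tested and 251 of the 293. The search covered both strands and looked for the CHR element of mitotic genes (TTTGAA or TTCGAA, the latter a palindrome), the CCAAT box (CCAAT) and E2F sites (TTTCGCGC, TTTGGCGC, TTTCCCGC or TTTGCGCC), which may overlap one another. The promoters of 6 genes are printed, those of 2 replication genes with an E2F match and of 4 mitotic genes with CHR and CCAAT matches, all named further down with their signals. Capitals mark every match. Cdc6 is at chr11:98907901-98908200 on the plus strand, Topbp1 at chr9:103305077-103305376 on the plus strand, Kif22 at chr7:127042371-127042670 on the minus strand, Aurka at chr2:172370521-172370820 on the minus strand, Kif23 at chr9:61946750-61947049 on the minus strand and Cenpa at chr5:30666636-30666935 on the plus strand.
Cdc6: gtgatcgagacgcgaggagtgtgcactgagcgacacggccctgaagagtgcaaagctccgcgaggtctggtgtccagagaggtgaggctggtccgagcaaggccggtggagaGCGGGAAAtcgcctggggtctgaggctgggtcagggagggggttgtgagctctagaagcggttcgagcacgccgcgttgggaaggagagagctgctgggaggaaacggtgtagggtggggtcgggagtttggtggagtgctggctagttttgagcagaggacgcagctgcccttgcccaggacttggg
Topbp1: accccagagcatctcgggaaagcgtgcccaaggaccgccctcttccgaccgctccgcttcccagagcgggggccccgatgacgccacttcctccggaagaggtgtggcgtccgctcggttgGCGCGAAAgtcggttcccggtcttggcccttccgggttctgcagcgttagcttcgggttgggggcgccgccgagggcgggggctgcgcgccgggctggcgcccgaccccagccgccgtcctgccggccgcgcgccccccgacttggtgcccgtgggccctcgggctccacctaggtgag
Kif22: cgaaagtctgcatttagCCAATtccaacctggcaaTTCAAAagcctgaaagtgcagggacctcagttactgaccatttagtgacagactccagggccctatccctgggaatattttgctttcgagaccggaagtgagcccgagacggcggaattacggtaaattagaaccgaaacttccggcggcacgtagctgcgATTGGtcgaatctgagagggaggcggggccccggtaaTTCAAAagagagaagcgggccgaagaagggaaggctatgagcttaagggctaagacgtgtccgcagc
Aurka: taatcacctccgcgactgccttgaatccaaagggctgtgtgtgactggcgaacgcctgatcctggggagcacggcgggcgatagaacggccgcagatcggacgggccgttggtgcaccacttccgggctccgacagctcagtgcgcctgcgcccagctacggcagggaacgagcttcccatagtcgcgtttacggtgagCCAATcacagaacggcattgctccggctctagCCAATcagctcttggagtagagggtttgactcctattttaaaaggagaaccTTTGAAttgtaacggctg
Kif23: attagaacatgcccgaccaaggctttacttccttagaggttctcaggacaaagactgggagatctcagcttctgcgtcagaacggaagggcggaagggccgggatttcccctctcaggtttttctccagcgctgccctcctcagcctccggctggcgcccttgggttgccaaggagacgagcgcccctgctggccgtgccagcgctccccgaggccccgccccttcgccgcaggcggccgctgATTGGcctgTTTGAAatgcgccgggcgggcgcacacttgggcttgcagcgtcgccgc
Cenpa: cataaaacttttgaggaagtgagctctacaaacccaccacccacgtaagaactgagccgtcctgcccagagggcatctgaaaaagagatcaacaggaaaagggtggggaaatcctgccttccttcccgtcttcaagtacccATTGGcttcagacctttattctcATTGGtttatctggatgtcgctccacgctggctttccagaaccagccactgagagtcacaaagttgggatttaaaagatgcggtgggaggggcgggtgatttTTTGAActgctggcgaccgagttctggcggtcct

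A CHR match was held by 16.8% of promoters of all genes tested, by 37.8% of those of cell division genes, and by 56.9% of those in the 7 lists of mitosis. E2F letters were held by 3.25% of all, 12.1% in the mitosis lists and 25.9% in the lists of replication, repair and G1/S. CHR and CCAAT letters stood together in 6.89% of all promoters and in 43.1% of those of mitosis genes. Among the 116 mitosis genes with a promoter, the median difference was -0.66 for the 66 with a CHR match, of which 56 were lower at an unadjusted p under 0.05, and -0.27 for the 50 without, of which 26 were. In the replication, repair and G1/S lists the medians were -0.30 for the 35 genes with an E2F match, of which 16 were lower, and -0.26 for the 100 without, of which 52 were. Over all cell division genes they were -0.35 for 49 with an E2F match and -0.41 for 202 without. Among cell division genes with a promoter, a CHR match was held by 48.7% of the 150 that were lower and by 21.8% of the other 101, and an E2F match by 16.7% and 23.8%. These are matches of letters in 1 window per gene, which were not tested as binding sites.

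DNA replication begins with licensing, the loading of the MCM helicase onto origins, and of 15 licensing genes 7 were lower at an unadjusted p under 0.05, with a median of -0.29. Cdc6, the ATPase that loads the helicase, was 5.19 to 5.78 (median 5.65) in WT and 4.27 to 5.62 (median 4.79) in KO. KO 4, at 5.62, lay among the WT arrays, the other 5 KO arrays were all below the lowest WT array, WT 4 (5.19), and the difference was -0.74 ± 0.16 (SE, unadjusted p = 9.23e-05, adjusted p = 0.175 in limma). Without the arrays numbered 4 it was -0.97 ± 0.13, about 0.51 of the WT level, at an adjusted p of 0.00017. Mcm2, a subunit of that helicase, was 8.18 to 8.95 (median 8.75) in WT and 7.68 to 8.68 (median 8.13) in KO, with a difference of -0.49, or -0.68 without those 2 arrays.

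Origin firing converts the loaded helicase into a moving one. All 14 firing genes had lower means in KO and 9 were lower at an unadjusted p under 0.05 (median -0.37). Topbp1, a scaffold for origin firing and for the replication checkpoint, was 7.56 to 7.90 (median 7.67) in WT and 7.14 to 7.65 (median 7.28) in KO. Its difference was -0.37 ± 0.08 with all arrays and -0.47 ± 0.08 without those numbered 4 (adjusted p 0.233 and 0.00244), and the other 5 KO arrays were all below all WT arrays. Mcm10, which helps the helicase to start, differed by -0.55 and -0.85 in these readings.

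At the fork, 18 of 32 polymerase and fork genes were lower at an unadjusted p under 0.05 and 0 higher (median -0.30, or -0.46 without the arrays numbered 4). Pold1, whose product is the polymerizing subunit of DNA polymerase delta, was 6.82 to 7.23 (median 7.10) in WT and 6.45 to 7.01 (median 6.66) in KO. All KO arrays but KO 4 (7.01) were below the lowest WT array, and the difference was -0.39 ± 0.08 (adjusted p = 0.175). Pcna, the sliding clamp that holds the polymerases on DNA, was 9.55 to 10.01 (median 9.87) in WT and 9.17 to 9.90 (median 9.36) in KO, a difference of -0.41. Lig1, which seals the fragments of the lagging strand, differed by -0.54. Without the arrays numbered 4 the 3 differences were -0.51, -0.57 and -0.76, at adjusted p-values of 0.000523, 0.00151 and 0.00369.

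The lists next to the fork differed less. Of 15 genes of nucleotide supply 5 were lower at an unadjusted p under 0.05 (median -0.11). Tk1, the thymidine kinase made in S phase, was 6.82 to 7.86 (median 7.50) in WT and 5.97 to 7.54 (median 6.75) in KO and differed by -0.74, and Rrm1, the large subunit of ribonucleotide reductase, by -0.49. Of 24 G1/S cyclin and E2F genes 8 were lower and 1 higher (median -0.10). Ccne1, the cyclin that drives entry into S phase, was 6.39 to 7.54 (median 7.12) in WT and 5.80 to 7.0 (median 6.46) in KO (difference -0.60 ± 0.17, adjusted p = 0.342), and -0.84 without the arrays numbered 4. Skp2, which marks CDK inhibitors for destruction, differed by -0.50. The gene that went the other way was Myc, a transcription factor that drives growth: it was 6.98 to 7.41 in 5 WT arrays and 8.41 in WT 4, and 7.99 to 8.54 in 5 KO arrays and 7.06 in KO 4, so that its difference was 0.62 ± 0.21 with all arrays and 1.02 ± 0.13 without those 2 (adjusted p 0.407 and 0.000159).

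Repair and chromatin genes used in S phase were counted in 3 lists. Of 25 recombination and Fanconi genes 11 were lower at an unadjusted p under 0.05, and of 15 mismatch repair and S-phase checkpoint genes 5. Brca1, which directs breaks to homologous recombination, was 5.01 to 5.91 (median 5.55) in WT and 4.42 to 5.35 (median 4.99) in KO. The difference was -0.56 ± 0.15 (adjusted p = 0.322), with KO 4 (5.35) above WT 4 and WT 5. Palb2, its partner, differed by -0.38, Fanca of the Fanconi core complex by -0.57, the checkpoint kinase Chek1 by -0.44 and the glycosylase Neil3 by -0.80. Of 19 genes of chromatin assembly and DNA methylation 11 were lower. Uhrf1, which copies DNA methylation onto new strands, was 6.74 to 7.61 in 5 WT arrays and 5.91 in WT 4, and 5.54 to 6.21 in 5 KO arrays and 7.17 in KO 4. Chaf1a, which places histones on new DNA, showed the same arrangement, with KO 4 at 6.10 and the other KO arrays at 5.15 to 5.35.

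The larger differences were in mitosis. Entry kinases and their transcription factors had a median of -0.62 with 19 of 24 lower at an unadjusted p under 0.05. Aurka, the kinase that matures centrosomes, was 6.19 to 7.28 (median 6.93) in WT and 4.98 to 6.6 (median 6.24) in KO. KO 5 and KO 6 were the lowest arrays (5.46 and 4.98), the other 4 KO arrays lay between WT 4 (6.19) and WT 5 (6.66), and the difference was -0.87 ± 0.25 (adjusted p = 0.351). Cdc25c, the phosphatase that releases CDK1, differed by -0.69.

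Centromeres and kinetochores, the sites where chromosomes meet the spindle, were lower in 11 of 13 inner and 19 of 26 outer genes at that level, with medians of -0.46 and -0.60. Cenpa, the histone H3 variant that defines the centromere, was 7.13 to 8.10 (median 7.81) in WT and 6.44 to 7.89 (median 7.31) in KO. KO 1, 2, 3 and 4 were within the WT range, KO 5 and KO 6 (6.56 and 6.44) were below it, and the difference was -0.58 ± 0.20 (adjusted p = 0.402). Cenph, of the inner kinetochore, was 4.00 to 4.33 in 5 WT arrays and 3.33 in WT 4, and 2.91 to 3.46 in 5 KO arrays and 4.04 in KO 4. Its difference grew from -0.60 to -0.87 without those 2 arrays (adjusted p 0.302 and 0.000222). Spc25, of the NDC80 complex that grips microtubules, differed by -0.85, and Ttk, the checkpoint kinase, by -0.73. Spdl1, which recruits dynein to kinetochores, was the only one of the 293 whose groups did not overlap, 2.62 to 3.23 in WT and 2.21 to 2.61 in KO, at signals near the floor of the array.

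The chromosome passenger complex and the machinery of cytokinesis had the lowest median of the 15 lists, -0.71, with 14 of 15 genes lower at an unadjusted p under 0.05. Its level was 6.14 to 7.11 in WT and 5.21 to 6.76 in KO, and KO 5 and KO 6 were below the other 10 arrays. Incenp, the scaffold of the complex, was 6.16 to 6.91 (median 6.63) in WT and 5.28 to 6.42 (median 6.06) in KO, a difference of -0.64 ± 0.18 (adjusted p = 0.336). Aurkb, its kinase, was 7.50 to 8.86 (median 8.42) in WT and 6.47 to 8.33 (median 7.68) in KO. KO 5 and KO 6 were again lowest (6.83 and 6.47), KO 3 and KO 4 (8.15 and 8.33) were near WT 5 (8.22), and the difference was -0.85. Kif23, a kinesin of the midbody, differed by -0.88, about 0.54 of the WT level.

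Of 24 spindle genes 19 were lower at an unadjusted p under 0.05 (median -0.64). Kif22, a kinesin that pushes chromosome arms to the middle of the spindle, was 6.03 to 7.18 (median 6.61) in WT and 4.57 to 6.43 (median 5.74) in KO, and its difference of -0.96 ± 0.26 (adjusted p = 0.322) was the lowest among the 293 genes. Cep152, which starts centriole duplication, was 4.07 to 4.33 (median 4.24) in WT and 3.58 to 4.08 (median 3.79) in KO, with KO 1 (4.08) just inside the WT range and the other 5 KO arrays below it. Of 17 condensin and cohesin genes 11 were lower, among them Cdca5, which protects cohesin until anaphase (-0.87), and Esco2, which acetylates it (-0.87). The list of the anaphase-promoting complex had 3 of 15 genes lower (median -0.11). Among them were its activator Cdc20 (-0.68) and its inhibitor Fbxo5 (-0.67). Without the arrays numbered 4, these 2 passed the adjusted threshold, at 0.0164 and 0.00349.

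**Figure D4:**
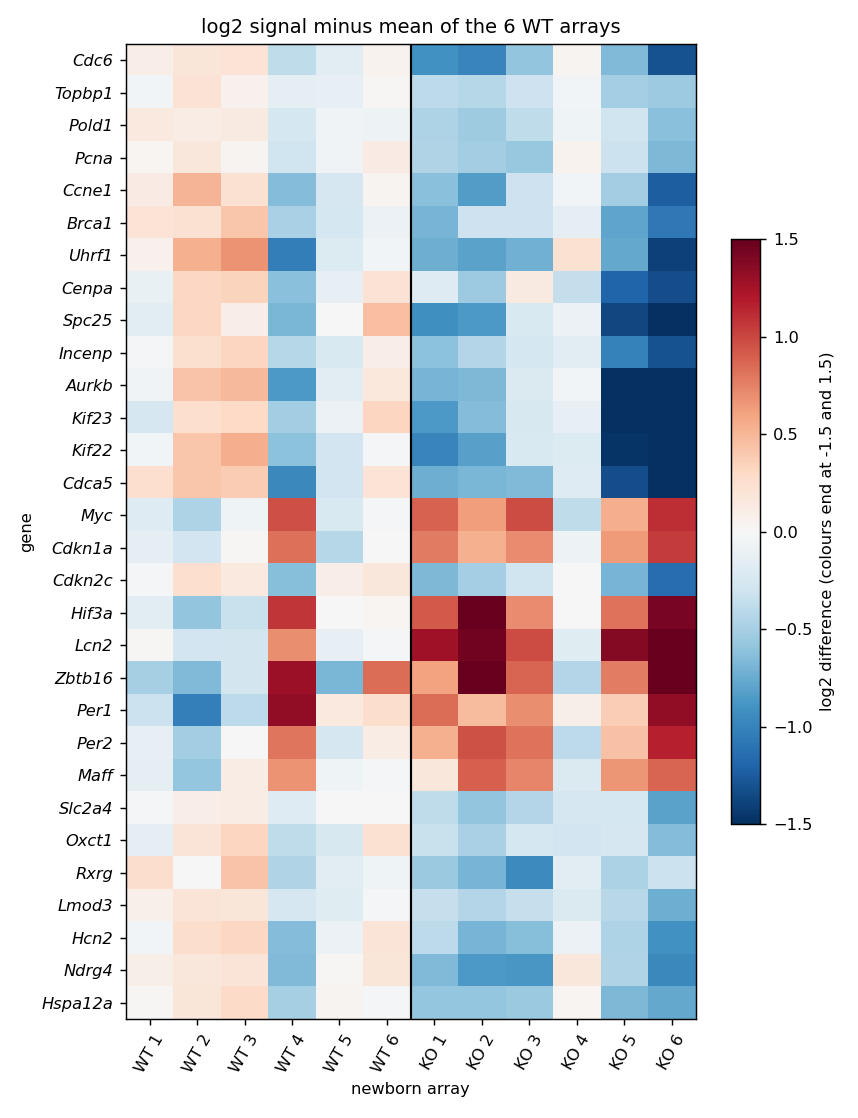
log2 signal of 30 genes in the 12 newborn arrays, each minus the mean of the 6 WT arrays (blue lower, red higher, colours end at -1.5 and 1.5). The upper 14 rows are cell division genes: WT 4 is below the WT mean in all of them and KO 6 is the lowest KO array, while in Myc, Cdkn1a, Hif3a, Lcn2, Zbtb16, Per1, Per2 and Maff WT 4 is the highest WT array.

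Against this trend, a list written for growth arrest genes that answer to FoxO factors or glucocorticoids was higher in KO. It also holds Foxo1 and Foxo3 themselves and metabolic genes such as Pdk4, so the name does not describe every member. The list was written with earlier results of these data known. It includes Hif3a and Fam107a, which the study names from these arrays, so its rise is a description and not independent support. Of 26 genes, 10 were higher at an unadjusted p under 0.05 and 0 lower, where 1.45% and 7.62% of all genes were. In KO, 24 of the 26 had a higher mean, and the median of the list was 0.26. The mean signal of the list was 7.73, 7.53, 7.77, 8.30, 7.75 and 7.77 in WT 1 to 6 and 8.11, 8.37, 8.08, 7.68, 8.07 and 8.45 in KO 1 to 6. WT 4 is again among the KO arrays and KO 4 among the WT arrays, and the other 5 of each group do not overlap. Without these 2 arrays 11 of the 26 rose at an adjusted p under 0.05, against 0.622% of all genes, and the median was 0.42. In young hearts the median of the list was 0.31, against 0.03 over all genes. Without KO 1, 2 and 6, 2 of the 26 were higher at an unadjusted p under 0.05, against 48 of all 18819 genes, and the median was 0.08, and without all 5 arrays the values were 12, against 280 of all genes, and 0.33. Leaving out single arrays gave 4, without WT 2 or KO 6, to 15, without WT 4.

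**Figure D5:**
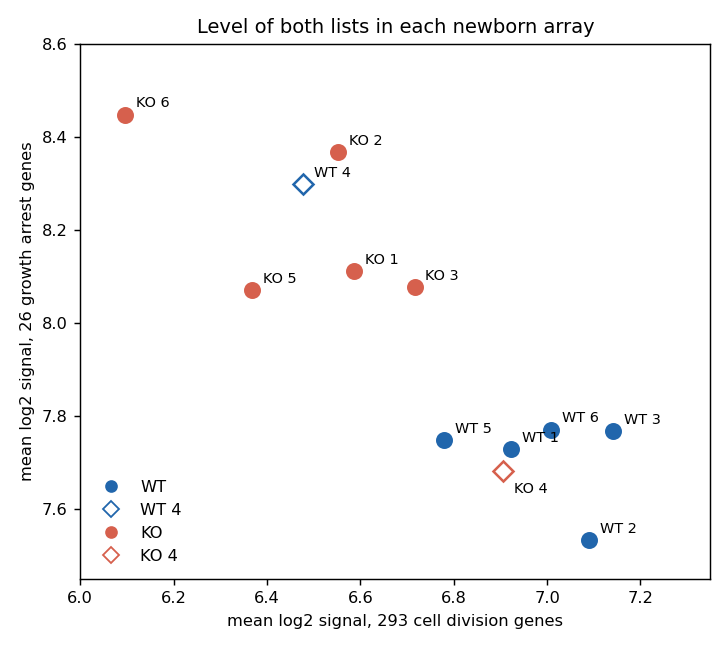
Mean log2 signal of 293 cell division genes against that of the 26 genes of the growth arrest list in each newborn array. Circles are arrays and open diamonds the arrays numbered 4. WT 1, 2, 3, 5 and 6 with KO 4 lie at the lower right and KO 1, 2, 3, 5 and 6 with WT 4 at the upper left.

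Hif3a, a hypoxia-inducible factor that restrains its relatives and answers to glucocorticoids, was 6.21 to 6.84 in 5 WT arrays and 7.88 in WT 4, and 7.52 to 8.31 in 5 KO arrays and 6.82 in KO 4. Its difference was 0.89 ± 0.22 with all arrays and 1.28 ± 0.15 without those 2, or 2.44 times WT (adjusted p 0.278 and 5.16e-05). The paper lists Hif3a among genes with reduced transcription in newborn KO hearts, which is the opposite direction. Lcn2, a secreted iron-binding protein of the acute phase, was 4.98 to 5.96 (median 5.19) in WT and 5.08 to 7.41 (median 6.59) in KO, with a difference of 1.17 ± 0.28, and every KO array but KO 4 was above every WT array. Zbtb16, a zinc finger repressor induced by glucocorticoids, was 6.68 to 8.64 (median 6.97) in WT and 6.92 to 9.96 (median 8.18) in KO, and differed by 1.06. Sgk1, a kinase named for its induction by serum and glucocorticoids, differed by 0.37, and Klf15, a repressor of cardiac growth, by 0.32. Fam107a, another glucocorticoid-responsive gene, was 4.56 to 5.87 (median 4.83) in WT and 5.00 to 6.10 (median 5.26) in KO, and its difference of 0.45 ± 0.25 had an unadjusted p of 0.0846 in limma, whereas it was 1.5 ± 0.25 in young hearts (adjusted p = 0.00379).

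The list of CDK inhibitors and p53 targets had no common direction, with a lower mean in KO for 13 of 26 genes. At an unadjusted p under 0.05, 2 were higher and 2 lower (median 0.02), where 1.45% and 7.62% of all genes were. Cdkn1a, the CDK inhibitor p21, was 8.53 to 8.98 in 5 WT arrays and 9.79 in WT 4, and at least 9.49 in 5 KO arrays and 8.88 in KO 4. The difference was 0.60 ± 0.18 with all arrays and 0.91 ± 0.14 without those 2, and 0.94 ± 0.18 in young hearts, where it passed the threshold (adjusted p = 0.0118). Cdkn2c, the inhibitor p18 that E2F factors switch on in dividing cells, differed by -0.55 ± 0.16. Fas, a death receptor, was 4.12 to 5.24 in WT and 4.37 to 5.04 in KO and differed by 0.35, with KO 4 at 4.37 and the other KO arrays at 4.96 to 5.04.

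Clock and early-response genes showed the same placement of the arrays. Of 16 clock genes 4 were higher at an unadjusted p under 0.05 and 0 lower, where 1.45% and 7.62% of all genes were. A lower mean in KO was found for 7 of the 16, and the median of the list was 0.07. Per2, a repressor of the clock, was 5.42 to 6.05 in 5 WT arrays and 6.75 in WT 4, and 6.39 to 7.11 in 5 KO arrays and 5.56 in KO 4. Ciart, another repressor, differed by 0.48, Bhlhe40 by 0.29 and Per1, which glucocorticoids also induce, by 0.63. Of 23 early-response genes 3 were higher, including Maff, a small MAF factor (0.52), and Klf4, a zinc finger factor (0.47). The hour of dissection is not given in the labels.

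Energy metabolism stayed near the rest of the table, apart from single genes. Slc2a4, the insulin-regulated glucose transporter GLUT4, was 9.13 to 9.43 in WT and 8.52 to 9.07 in KO. The groups did not overlap, even with the arrays numbered 4 included, and the difference of -0.46 ± 0.09 (0.73 of the WT level) had an adjusted p of 0.101 in limma, the smallest value of the table and shared by 3 genes, or 0.00203 without those 2 arrays. Hk2, the first enzyme of glycolysis in muscle, differed by -0.24, with KO 6 (7.15) set apart below the other KO arrays. In glucose transport and glycolysis, 3 of 25 genes were lower at an unadjusted p under 0.05. Of 27 genes of fatty acid and ketone oxidation 1 was lower and 1 higher: Oxct1, which activates ketone bodies, by -0.38, and Acot1, a thioesterase, by 0.41. Of 20 metabolic regulators 2 were lower and 1 higher. Rxrg, a retinoid X receptor, was 5.62 to 6.49 (median 6.03) in WT and 5.12 to 5.91 (median 5.55) in KO and differed by -0.53 ± 0.13 (adjusted p = 0.278). Of 42 genes of oxidative phosphorylation 5 were lower at that level and 37 had a lower mean, where 68.8% of all genes did, with a median of -0.05. Of 20 hypoxia genes 2 were lower and 2 higher, Hif3a and Ndrg1 (0.33), a stress-responsive relative of Ndrg4.

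Heart muscle genes were little different. Of 20 cardiac transcription factors 0 were lower or higher at an unadjusted p under 0.05, and of 32 sarcomere genes 3 were lower (median -0.01). Lmod3, which nucleates actin filaments in muscle, was 8.52 to 8.96 (median 8.80) in WT and 8.04 to 8.55 (median 8.38) in KO. Only KO 4 (8.55) was above the lowest WT array, WT 4 (8.52), and the difference was -0.42 ± 0.10 (adjusted p = 0.278). Of 26 calcium and ion channel genes 4 were lower, with Hcn2, a pacemaker channel, at -0.53 and Kcnj11, the pore of the ATP-sensitive potassium channel, at -0.26. For Kcnj11, KO 6 (7.43) was set apart below the other KO arrays. Of 13 natriuretic and stress genes 2 were lower and 2 higher. Ndrg4 and Hspa12a, described above for their placement of the arrays, had differences of -0.61 ± 0.16 and -0.52 ± 0.13 with all arrays, and -0.89 ± 0.10 and -0.73 ± 0.09 without those numbered 4. Xirp2, an actin-binding protein of the intercalated disc, was higher by 0.33. Nppa, the atrial natriuretic peptide, was 11.51 to 12.48 in WT and 12.17 to 12.66 in KO.

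Apoptosis genes showed small differences. Of 25 measured caspase and BCL2 family genes 3 were lower at an unadjusted p under 0.05 and 0 higher, where 7.62% and 1.45% of all genes were. The median of the list was -0.04, against -0.05 over all genes, so it stayed near the rest of the table. Casp9, the initiator activated by the apoptosome, was 6.89 to 7.13 (median 7.08) in WT and 6.71 to 6.99 (median 6.89) in KO, a difference of -0.16. Casp8, the initiator below death receptors, differed by -0.23 and Aifm1, a flavoprotein of the mitochondrial intermembrane space, by -0.15.

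For other cells and for matrix the counts were as follows. Of 14 endothelial markers 1 was higher at an unadjusted p under 0.05 (Vwf, 0.32), of 13 fibroblast, 12 macrophage, 10 smooth muscle and pericyte, 11 atrial, 9 adipocyte and 6 nerve and glia markers 0 were lower or higher, and of 11 erythroid markers 1 was lower. A lower mean in KO was found for 0 of 11 atrial (median 0.13), 2 of 9 adipocyte, 3 of 12 macrophage and 2 of 6 nerve and glia markers. For fibroblast, smooth muscle, endothelial and erythroid markers it was 6 of 13, 5 of 10, 10 of 14 and 8 of 11, where 68.8% of all genes had one. The atrial level varied widely between arrays, with an SD of 0.65 in WT and 0.43 in KO. Of 11 epicardial markers 1 was lower, Aldh1a2, the retinoic acid enzyme (-0.41), while 10 had higher means and the list's median was 0.31. Its level ran over 7.02 to 7.63 in WT and 7.16 to 8.30 in KO, with KO 6 highest, as KO 6 also was for macrophage (6.91) and smooth muscle (9.05) markers. Of 32 matrix genes 1 was lower (Col4a1, -0.24), of 34 growth factor and receptor genes 2 were higher (Igf2r, 0.16, and Igfbp2, 0.57, which turned to -0.023 without KO 1, 2 and 6), and of 23 interferon genes 1 was lower and 1 higher (Oasl2, 0.36). Of 10 neutrophil and lymphocyte markers 3 were higher, where 1.45% of all genes were, with Ngp, a granule protein, at 0.62.

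Without any test, 92 genes had KO and WT values that did not overlap: in 82, or 0.436% of the table, the 6 KO arrays were all below the 6 WT arrays, and in 10, or 0.0531%, all above. Of the 92, 53 had a mean signal under 4, where 35.7% of all genes lie. Among the lower genes the largest difference was in Cmss1, a ribosomal small subunit protein homologue, at 7.67 to 8.33 in WT and 7.04 to 7.67 in KO, which meet after rounding (-0.61). Slc2a4 was another, as were Pla2r1, a phospholipase A2 receptor (-0.43), Oprd1, the delta opioid receptor (-0.42), Rgs7bp, which anchors G-protein regulators (-0.41), and Hpf1, which directs ADP-ribosylation to serine (-0.33). Slc9a3, a sodium-proton exchanger, had a difference of -0.46 at signals of 2.66 to 3.70. Among the 10 higher genes Hp, the haemoglobin scavenger haptoglobin, made mainly by liver, was 3.12 to 4.09 in WT and 4.14 to 6.72 in KO, with its highest values in KO 1, 2 and 6. Osgin1, an oxidative stress gene (0.34), Tlr5, the flagellin receptor (0.33), and Tns3, a focal adhesion protein (0.17), were others. The number of such genes rose to 794 lower and 290 higher, 4.22% and 1.54%, without the arrays numbered 4, where 5 arrays stand against 5.

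Without the arrays numbered 4, 482 genes passed the adjusted threshold in limma, 365 lower and 117 higher. The 10 with the largest falls were 6 cell division genes, Bub1, Esco2, Kif22, Tpx2, Cdca5 and Nuf2, with differences between -1.25 and -1.2, and Wdfy1, Prnd, Rab4a and Sfxn4. Wdfy1, an endosomal adaptor of Toll-like receptors, was 6.56 to 7.0 in 5 WT arrays and 4.79 to 6.15 in 5 KO arrays, with WT 4 at 5.17 and KO 4 at 6.85 (-1.51). Prnd, a relative of the prion protein, differed by -1.49, Rab4a, a GTPase of recycling endosomes, by -1.24, and Sfxn4, a mitochondrial sideroflexin, by -1.23 ± 0.10. The Sfxn4 values were 6.39 to 6.5 in 5 WT and 4.82 to 5.59 in 5 KO arrays, and WT 4 and KO 4 were at 5.15 and 6.45.

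The largest rises without those 2 arrays were in Sftpc, the lung surfactant protein C (2.42), whose signal was 3.93 to 7.91 in KO and 3.04 to 3.46 in WT, and which was highest where the other lung transcripts were, in KO 6, 2 and 1, with KO 3 at 4.91. Slc34a2, a phosphate transporter of the lung epithelium (1.21), was also highest in KO 6, at 5.42. Slc7a3, a transporter of cationic amino acids, was 2.02 to 2.39 in 5 WT arrays and 3.49 to 4.40 in 5 KO arrays, with WT 4 at 4.25 and KO 4 at 2.13, a difference of 1.74 ± 0.13 (adjusted p = 1.77e-07). Asns, which makes asparagine, differed by 1.25, Slc10a6, a transporter of steroid sulphates, by 1.56, Cxcl10, an interferon-induced chemokine, by 1.51, and Avil, an actin regulator, by 1.2.

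The newborn difference was set against that of young hearts by a contrast of both in the same fit. With all arrays 2 genes, 0.0106% of the table, passed at an adjusted p under 0.05. Sh3rf2, a scaffold of stress kinases, differed by 0.37 in newborn and -1.31 in young hearts, which makes 1.68 ± 0.24 between the ages (adjusted p = 0.00789). Flnc, the muscle filamin, differed by 0.12 and -0.50, which makes 0.62 ± 0.10 (adjusted p = 0.0303). None of the 293 cell division genes passed this contrast with all arrays. Their median was -0.04 in young hearts, against 0.03 over all genes, of which 1.02% were called there. By list, the young median was -0.23 for spindle genes, -0.21 for chromosome passenger and cytokinesis genes and -0.17 for G2/M kinases and transcription. In the other cell division lists it was -0.06 to 0.02. Without the arrays numbered 4 the contrast was passed by 79 genes, 0.42% of the table, and by 7 of the 293, including Cdc6 (adjusted p = 0.0303), Pcna (0.0301), Cenph (0.0222) and Myc (0.0386). Hif3a, with 0.07 in young hearts, also passed (0.0171).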

How the data were processed

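RNA of 24 ventricles, 6 arrays for each of 4 groups, had been hybridised to Affymetrix whole-transcript mouse arrays. The authors had summarised the arrays with RMA and deposited log2 signals, with oligo 1.22, limma 3.14 and R 2.15 in the submitters' processing notes. In the deposited values the arrays did not share 1 median, and other scalings were tried. The genome build is not given in the sources used here.

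Of 35017 probe sets, 21118 had 1 gene symbol, 1735 several and 12164 none in the annotation given. The brightest probe set over all arrays stood for a gene, which left 18819 genes. A 1-mean-per-group model over all 24 arrays was fitted with limma 3.58.1 (R 4.3.3), and p-values, moderated and adjusted by Benjamini-Hochberg over all genes, were read for the newborn contrast. "Called" means an adjusted p under 0.05. No p-value in the text is from another test. The script was tested on simulated data. The number of arrays limits the precision.

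Members and gene lists were chosen with earlier results of these data known. Genes are named if the study names them for newborn hearts, if they are among the 4 smallest p of a list, or among the 10 largest rises or falls of genes without overlap or called without the arrays numbered 4. Fbxo8, Aga and the other genes separated in young hearts, Sh3rf2, Flnc, the tissue markers, Klf15, Nppa and the genes of the last section were chosen after their values were seen. Alternatives were other scalings, filters, weights, models and arrays left out. Some genes, including the targets of the knockout, are not reported here.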

Additional observations from a re-analysis of the deposited data

Results flagged for a closer look

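In 338 groups of 6 newborn values, those of the named genes and of the list levels, the gap of the highest or lowest array to its neighbour, as a share of the group's range, was above Dixon's critical value for 6 samples in 42. Chance flags about 1 in 20 groups, but many of these genes were named because they were called, or differed most, without the arrays numbered 4. That choice favours flags of WT 4 and KO 4, so the count cannot be read against chance, and genes that share arrays are not independent.

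WT 4 was lowest for Sfxn4 (gap share 0.924), Peg10 (0.857), Ndrg4 (0.796), Wdfy1 (0.761), Esco2 (0.727), Aga (0.725), Cdkn2c (0.699), Rab4a (0.675), Cenph (0.67), Casp8 (0.645), Fam160b1 (0.637) and Fbxo8 (0.637). It was highest for Slc7a3 (0.837), Slc7a5 (0.817), Slc10a6 (0.777), Trib3 (0.747), Ndrg1 (0.704), Myc (0.697), Lcn2 (0.694), Cxcl10 (0.686), Chac1 (0.657), Cdkn1a (0.643), Vwf (0.637) and the level of the growth arrest list (0.69).

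KO 4 was highest for Chaf1a (0.796), Hspa12a (0.742), Rab4a (0.741), Peg10 (0.687) and Fbxo8 (0.681), and lowest for Fas (0.888), Slc3a2 (0.746), Asns (0.723) and Acot1 (0.681).

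KO 6 was highest for Tnnt3 (0.856), Myh8 (0.84), Ltf (0.757), the macrophage list (0.653) and the sarcomere list (0.627), and lowest for Kcnj11 (0.812) and Hk2 (0.774). WT 3 was highest for Aifm1 (0.679) and WT 2 lowest for the list of calcium handling and ion channels (0.656).

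The newborn and young differences themselves differed for Sh3rf2, by 1.68 (adjusted p = 0.00789 in limma), and for Flnc, by 0.616 (adjusted p = 0.0303).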

How the results depend on the processing

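No gene was called with all 12 arrays, and array weights gave 31 calls, leaving out both arrays numbered 4 gave 482 (552 in a fit of newborn arrays alone), and leaving out these with KO 1, 2 and 6 gave 26. Leaving out single arrays gave 0 to 73, with 73 without WT 4, 49 without KO 4 and 0 otherwise. Genes lower at an unadjusted p under 0.05 numbered 839 with median centring, 793 with quantile normalization, 2666 in newborn arrays alone without those numbered 4, 378 without KO 1, 2 and 6, 777 without all 5, and 771 to 1757 without single arrays (771 without WT 3 and 943 without KO 6). Higher genes numbered 632 with quantile normalization, 582 with weights, 673 without the arrays numbered 4 (899 in newborn arrays alone), 48 without KO 1, 2 and 6, and 160 to 490 without single arrays (160 without WT 2, 182 without KO 6, 457 without WT 4 and 490 without KO 4). Genes without overlap, lower in KO, numbered 36 without dim genes, 25 with quantile normalization, 794 without the arrays numbered 4 in both fits, 303 without KO 1, 2 and 6, 1856 without all 5, and 86 to 268 without single arrays. Those higher in KO numbered 27, 290, 40 and 785 under the same settings but the first, and 11 to 54 without single arrays. Lower cell division genes numbered 29 without KO 1, 2 and 6 and 113 to 209 without single arrays, 113 being without KO 6. Higher growth arrest genes numbered 17 without the arrays numbered 4, in both fits, 2 without KO 1, 2 and 6, and 4 to 15 without single arrays, 4 being without WT 2 or without KO 6, 5 without KO 2 and 6 without WT 1. The medians ran from -0.446 to -0.275 for cell division and from 0.203 to 0.359 for growth arrest without single arrays. The contrast with young hearts called 79 genes without the arrays numbered 4. The causes were not tested.

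Signs turned without KO 1, 2 and 6 for Igfbp2 (-0.023), Alb (-0.011), Apoa1 (-0.038), Myh8 (-0.156) and Tnnt3 (-0.062), without all 5 for Alb (-0.127), Afp (-0.004), Myh8 (-0.2), Tnnt3 (-0.09), Ltf (-0.019) and Cd8a (0.102), and without KO 6 for Myh8 (-0.127 to 0.512 without single arrays). The share of lower among genes at an unadjusted p under 0.05 was 84.0% as reported, 69.0% with centring, 55.6% with quantile normalization and 75.6% without WT 3.

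With the replicate number as a block, 0 genes were called, 1454 were lower and 247 higher at an unadjusted p under 0.05, and 158 cell division genes were lower. Deviations of same-numbered KO and WT arrays correlated at -0.438 to 0.13, the lowest value being that of the arrays numbered 4. These correlations gave no sign that the numbers pair the samples, but they cannot exclude it.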

Other observations

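Several further genes, chosen after their values were seen, are given as single values. Trib3, a pseudokinase, was 3.98 to 4.28 in 5 WT arrays and 4.79 to 5.24 in 5 KO arrays, with WT 4 at 5.15 and KO 4 at 4.07. Its difference was 0.54 ± 0.17 with all arrays and 0.86 ± 0.10 without those numbered 4 (adjusted p 5.16e-05 in limma). Chac1, which degrades glutathione, differed by 0.65 and 0.97 in the same readings, Slc7a5, the partner of Slc3a2 in leucine transport, by 0.45 and 0.65, and Atf3, a stress-induced transcription factor, by 0.40 and 0.97. None of these passed the adjusted threshold with all arrays.

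Peg10, an imprinted gene of retrotransposon origin, was 8.18 to 8.28 in 5 WT arrays and 7.32 to 7.60 in 5 KO arrays, with WT 4 at 7.59 and KO 4 at 8.22. Nppb, the B-type natriuretic peptide, was 7.46 to 9.65 in WT and 7.75 to 9.69 in KO, and differed by 0.58 with all arrays and 1.07 without those numbered 4. Ahsg and Trf, plasma proteins made mainly by liver, were highest in KO 2 (10.29) and in KO 6 (9.40) respectively, and Krt19, an epithelial keratin, was 9.04 in KO 6 against 6.18 to 7.41 in WT.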
